A study of Mus musculus with 4 samples.

Results

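The 86 genes described here encode the proteins of the cytoplasmic ribosome, and were taken from the 32285 genes of the count tables by symbol: every Rpl or Rps symbol followed by a digit, p or a, without the kinases whose names begin with Rps6k and without symbols marked as pseudogenes. They comprise 52 Rpl genes, for the large subunit, and 34 Rps genes, for the small subunit. The rule also admits Rps19bp1, which encodes a binding partner of a ribosomal protein and no part of the ribosome. Their messenger RNA was counted as UMIs (unique molecular identifiers, each marking 1 captured molecule) in 4 Visium sections of fresh-frozen mouse liver, where each barcoded spot covers a small region that can hold several cells of different types. STAM sections, labelled 16 and 20 weeks, come from a metabolic model of liver cancer resembling fatty liver disease with type I diabetes; DEN+CCl4 sections, labelled 22 and 30 weeks, come from a model driven by DNA damage and fibrosis. DEN stands for diethylnitrosamine, a carcinogen, and CCl4 for carbon tetrachloride, a liver toxin. Each model and time had 1 section, no untreated liver was analysed here, and the 2 models share no labelled time. What the weeks count from, the strain and the sex are not given in the sources used here. Whether each section is a different mouse is not stated either, so the p-values below rest on section-to-section spread alone, part of which may be technical. Within a model the 2 sections also differ in labelled week, so this spread includes any difference between the times.

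Every cell needs ribosomes in number, and their proteins are made in nearly equal amounts, 1 of most kinds for each ribosome. Their messenger RNAs are abundant, stable and mostly of the 5′ TOP type: they begin with a C followed by a run of pyrimidines (C or T in the gene), a start through which the growth regulator mTOR and the RNA-binding protein LARP1 tune their translation. In liver, hepatocytes carry most of the ribosomes, which make the secreted proteins of the blood. A few members have a paralog with a distinct pattern of expression: Rps27l, a p53-responsive relative of Rps27; Rpl22l1, whose expression the RPL22 protein is known to repress; and Rps27rt, a retrogene, that is, a copy of Rps27 made from its messenger RNA.

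The starts of 7 genes are shown because the results turn on these genes. A tract like that of TOP messenger RNAs begins at the annotated start in some of them and later in Rps27l, Rpl22l1 and Rps12. Each window covers 10 bases before the RefSeq start (GRCm38.p6, the assembly of mm10) and 20 from it on, and so holds the beginning of exon 1 and of the 5′ UTR. Capitals mark a tract on the gene's own strand: a C followed by at least 4 bases that are each C or T. Its beginning was sought within 10 bases of the annotated start, on either side. In these 7 genes the marked tract begins at or after the start. Pyrimidines before the start stand in lower case here, also where they adjoin the tract. The windows lie at chr2:39005112-39005141 (minus strand) for Rpl35, chr4:86857348-86857377 (minus) for Rps6, chr3:90213629-90213658 (minus) for Rps27, chr9:114982720-114982749 (minus) for Rps27rt, chr9:66946076-66946105 (plus) for Rps27l, chr3:28805498-28805527 (plus) for Rpl22l1 and chr10:23787190-23787219 (minus) for Rps12.
Rpl35: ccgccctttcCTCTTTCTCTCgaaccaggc
Rps6: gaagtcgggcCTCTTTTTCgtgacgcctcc
Rps27: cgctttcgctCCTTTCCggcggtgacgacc
Rps27rt: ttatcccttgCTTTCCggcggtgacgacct
Rps27l: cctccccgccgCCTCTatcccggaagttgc
Rpl22l1: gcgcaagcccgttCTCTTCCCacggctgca
Rps12: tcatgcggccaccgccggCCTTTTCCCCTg

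In Rpl35, Rps6, Rps27 and Rps27rt the marked tract begins at the annotated start, and in Rpl35, Rps6 and Rps27 pyrimidines also stand directly before it. The windows of Rps27 and its retrogene shared an unbroken stretch of 19 bases, and those of Rps27 and Rps27l shared at most 4. RefSeq start windows were found for 66 of the 86 members. A tract began within 10 bases of the start, on either side, in 40 of these, 60.6%, against 34.4% of 27025 genes with a window. It began exactly at the start in 14, 21.2%, against 3.01%. Among 69 mitochondrial ribosomal protein genes with a window, whose products build the separate ribosome of mitochondria, 31 had a tract within 10 bases and none had one exactly at the start.

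Depth and detection were high for nearly all members. The kept spots numbered 2080, 2833, 2746 and 2968 in STAM16w, STAM20w, DEN22w and DEN30w, with 20700642, 40008457, 22471682 and 34880049 UMIs. Spot barcodes are printed at fixed array positions, so sections share between 1639 and 2204 of them by design. In every section the hepatocyte markers were present, at 30861 to 73275 CPM in sum (CPM, UMIs scaled to a section total of 1000000). Levels per gene were between 20 and 2488 CPM for 83 members. The other 3 are paralogs known from other tissues: Rpl3l, of muscle, stayed under 1 CPM, and Rpl10l and Rpl39l, of testis, were counted in at most 0.05 and 0.22 CPM.

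The family took the largest share of the transcriptome in STAM20w. Its UMIs made up 4.55% and 7.79% of the total in STAM16w and STAM20w, and 3.46% and 3.62% in DEN22w and DEN30w, with exact binomial 95% intervals of 4.54% to 4.56%, 7.78% to 7.80%, 3.46% to 3.47% and 3.61% to 3.62%, which cover counting error only. Both STAM sections lay above both DEN+CCl4 sections, and the 2 STAM sections lay further apart from each other than the 2 DEN+CCl4 sections did. The median member stood at 497, 846, 384 and 389 CPM in the same order. UMIs of Rpl genes outnumbered those of Rps genes, Rps19bp1 among them, by 1.61, 1.51, 1.57 and 1.55 times. The messenger RNA of the Rpl and Rps genes thus kept a similar proportion while the total moved, with the lowest ratio in STAM20w. In spots, tissue area, cell number and RNA per cell are captured together: fewer cells of a type and less RNA per cell cannot be told apart.

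**Figure D1:**
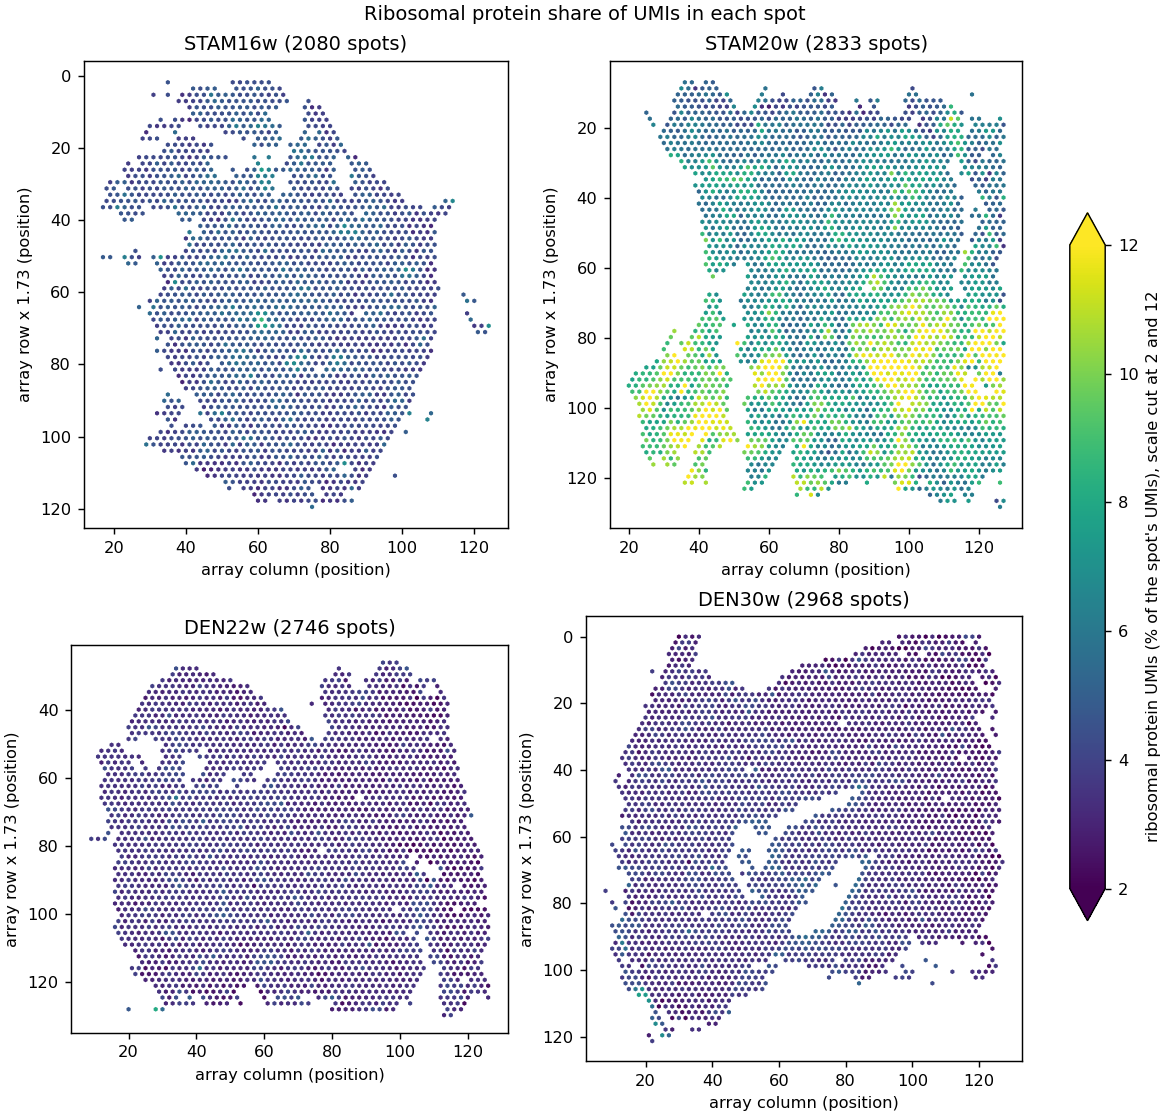
Share of each spot's UMIs taken by ribosomal protein genes, as colour (percent, scale running from 2 to 12), at the spot's place on the array (columns and scaled rows) in the 4 sections. STAM20w holds several bright fields, with shares near the 11.7% of its 95th percentile, whereas the 95th percentile of the other sections is at most 5.51%.

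Within a section the share varied more than counting alone gives, and most in STAM20w. Over spots its median was 4.48%, 7.02%, 3.38% and 3.37% in the same order. The 5th to 95th percentiles ran from 3.68% to 5.51%, from 4.88% to 11.7%, from 2.71% to 4.13% and from 2.61% to 4.46%. The standard deviation over spots was 0.589, 2.14, 0.446 and 0.579 percentage points, where counting error alone would give 0.240, 0.351, 0.260 and 0.278. High and low spots lay together: Moran's I, which is near 0 when touching spots are unrelated and 1 when they are alike, was 0.458, 0.787, 0.366 and 0.482. Deeper spots had slightly higher shares, from 4.36% in the shallowest of 4 equal groups of spots to 4.61% in the deepest in STAM16w, and from 7.36% to 8.20%, 3.24% to 3.56% and 3.19% to 3.79% in STAM20w, DEN22w and DEN30w.

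Across tissue tiles the members moved together. In tiles of 5 array rows by 10 columns, the level of a member and the sum of the other members had a median Pearson correlation of 0.46 over 94 tiles of STAM16w, 0.84 over 127 of STAM20w, 0.37 over 125 of DEN22w and 0.47 over 136 of DEN30w. Tiles of a section share a library, so these values are descriptions. Rpl41, the smallest ribosomal protein, and Rplp1, of the acidic stalk that recruits elongation factors, had the highest means over the 4 sections, with correlations of 0.82, 0.94, 0.81 and 0.82 for Rpl41 and of 0.72, 0.89, 0.69 and 0.81 for Rplp1. Rpl7l1, a relative of Rpl7 that works in ribosome assembly, had the lowest mean over the sections, with -0.05, 0.07, 0.12 and 0.18, and Rps19bp1 had -0.06, 0.31, 0.08 and 0.10. Rpl4, a core protein of the large subunit, had 0.32 and 0.64 across STAM tiles but -0.003 and -0.39 across DEN+CCl4 tiles. Rpl7l1 and Rps19bp1 are also among the 3 members with the fewest UMIs of those at 20 CPM or more, together with Rps27rt, which had 0.24, 0.19, 0.16 and 0.34.

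The first comparison asks whether the models differ. In edgeR's quasi-likelihood test on whole-section sums, STAM against DEN+CCl4 with 2 sections each, none of the 84 members tested passed a Benjamini-Hochberg adjusted p of 0.05, where 0.291% of 14417 genes passed as higher in STAM and 0.146% as lower. The members' median log2 fold change was 0.92, against 0.00 for all genes, and 83 of 84 were positive. At an unadjusted p under 0.05 there were 55 of the 84 members, and 22.9% of all genes; the smallest adjusted p among members was 0.0846. DESeq2, run on the same sums, called 48 members higher in STAM, with 6.22% of all genes. In CPM, both STAM sections lay above both DEN+CCl4 sections for 68 members, against 18.5% of all genes, and below them for 1 member, against 39.2%. The count rose to 10 members when STAM16w was left out and stayed at 0 without any other single section; it was 20 with no filter on low counts. In these fits 3.48% and 5.12% of all genes passed as higher.

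The largest differences belonged to Rpl35, Rpl41, Rpl9 and Rps27, 3 proteins of the large subunit and 1 of the small. Rpl35, which sits beside the tunnel where new proteins leave, was at 549 and 1116 CPM in STAM against 235 and 251 CPM in DEN+CCl4, with no overlap and a log2 fold change of 1.92 ± 0.38 (SE; edgeR adjusted p = 0.0846). Rpl41 was at 1616 and 2488 CPM against 704 and 874 CPM, a log2 fold change of 1.54 ± 0.35 (edgeR adjusted p = 0.0974). Rpl9, of the large subunit, was at 373 and 846 CPM against 219 and 245 CPM. Rps27, of the small subunit, was at 445 and 883 CPM against 255 and 303 CPM. For each of these 4 genes the groups did not overlap, and none passed the threshold in edgeR.

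At the other end stood genes whose level hardly followed the family. Rps6, the small-subunit protein that S6 kinases phosphorylate, was at 266 and 445 CPM in STAM against 294 and 331 CPM in DEN+CCl4, so the groups overlapped, with a log2 fold change of 0.34 ± 0.29 (edgeR adjusted p = 0.522). Rpl7l1 was at 48.5 and 74.0 CPM against 60.3 and 58.6 CPM, and Rps19bp1 at 37.1 and 47.4 CPM against 48.7 and 41.9 CPM; both overlapped. In all, 15 of the 84 tested members had overlapping groups, among them Rpl3, Rpl4, Rpl5, Rpl8, Rpl12 and Rplp0. The paralogs Rps27l and Rpl36al did not overlap, at log2 fold changes of 0.89 and 0.64, and Rpl22l1 did, at 0.50.

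Rps27rt was the single member that ran the other way. Its level was 22.03 and 34.7 CPM in STAM against 40.2 and 52.6 CPM in DEN+CCl4, from 456, 1387, 904 and 1834 UMIs, and the groups did not overlap. Its log2 fold change was -0.55 ± 0.24 (edgeR adjusted p = 0.247), which did not pass the threshold. When the summed UMIs of all members were taken as the library size, which asks whether a member departs from its family, its log2 fold change was -1.49 (edgeR adjusted p = 0.0125), and no other member passed in this comparison; on this scale 1.76% of all genes passed as higher in STAM and 26.8% as lower. The call held without STAM16w (adjusted p = 0.00224) or STAM20w (adjusted p = 0.0197) and was lost without DEN22w (adjusted p = 0.427) or DEN30w (adjusted p = 0.597), in fits where 63.9%, 22.3%, 1.66% and 0.859% of all genes passed as lower, at log2 fold changes of -1.32 to -1.65. The parent gene Rps27 differed in the opposite direction, by a log2 fold change of 1.40 ± 0.36. The 2 genes were compared only at their starts, where they share 19 bases, and whether the counted reads match both was not examined. Reads that match both may be lost or divided unevenly, so the level of either is uncertain as that of a single gene.

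**Figure D2:**
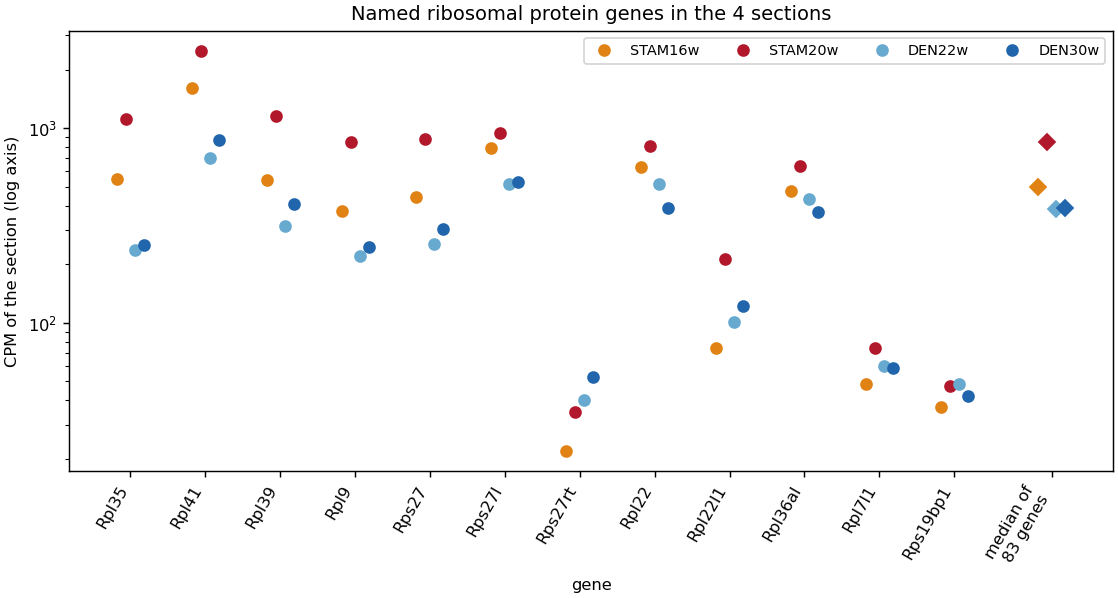
Level of 12 named ribosomal protein genes in each section (CPM, log axis; 1 point per section, no error bars), with diamonds for the median of the 83 genes at 20 CPM or more. Rpl35, Rpl41, Rpl39, Rpl9 and Rps27 sit higher in both STAM sections than in both DEN+CCl4 sections, and Rps27rt sits lower.

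Other properties of the sections differed alongside. The 5 hepatocyte markers summed to 30861 and 35297 CPM in STAM against 73275 and 52960 CPM in DEN+CCl4, with none at 0. The 12 pericentral markers summed to 7265 and 7086 CPM against 2760 and 2936 CPM, with a median log2 fold change of 1.995 (Glul and Cyp2c37 passed), and the 12 periportal markers to 5676 and 5484 CPM against 9780 and 8846 CPM, with a median of -0.93. Mitochondrially encoded genes took 2.10% and 3.67% against 1.31% and 1.55% of UMIs. With the 50 most abundant other genes left out of the total, the family's share was 6.82% and 10.6% in STAM against 4.95% and 4.996% in DEN+CCl4, so the order of the models was the same. The part of these features in the difference was not tested, and model and labelled time cannot be told apart.

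The same fold changes were read for genes around the ribosome. The 17 translation factors with TOP messenger RNAs had a median of 0.34, the 20 ribosome biogenesis genes 0.48, the 78 mitochondrial ribosomal protein genes 0.49 and the 10 genes of mTOR and TOP control -0.23. None of the genes of these 4 lists passed in edgeR, and the difference between these lists and the family was not tested.

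Between the 2 times of a model, 1 section stood on each side, so no test was made and folds are descriptions of these sections. In STAM the whole family was higher at 20 weeks: all 81 members that reached 50 CPM in either section were higher, 64 of them past 1.5-fold, where 19.6% of all genes at that level did, and none fell past 1.5-fold (9.91% of all genes). The median was 0.81 on the log2 scale, against 0.19 for all genes. In DEN+CCl4, 0 of 82 members passed 1.5-fold in either direction (7.12% of all genes higher, 4.2% lower), and the median was 0.08, against 0.02 for all genes. Past 2-fold in STAM there were 17 members, against 7.42% of all genes. There were 5 of 82 when the 50 most abundant other genes left the total (4.69% of all genes). Without the patches described further on there were 5 of 81 (6.2% of all genes), and both shares were near the background. Past 1.5-fold the same settings still gave 50 and 54 members, against 12.4% and 17.4% of all genes. Every member tested stayed higher, with medians of 0.67 and 0.72 on the log2 scale, against 0.02 and 0.16 for all genes. Markers of other cells were higher at 20 weeks too, as were genes of the H19 patch, a region and no cell type. Of those at 50 CPM or more, 3 of 3 macrophage, 2 of 3 MHC II, 1 of 1 bile duct and 3 of 3 H19 patch genes passed 1.5-fold. Their medians were 0.83, 0.64, 1.25 and 2.47 on the log2 scale. In DEN+CCl4, 3 of 3 macrophage, 4 of 4 MHC II and 1 of 1 bile duct genes passed 1.5-fold as well, with medians of 0.89, 1.37 and 1.29. So did 4 of 4 collagen, 2 of 2 plasma cell and 3 of 3 red cell genes, with medians of 0.84, 4.22 and 0.79. The 1 H19 patch gene at that level did not, with -0.06. The summed macrophage list went from 415 to 736 CPM in STAM and from 449 to 848 CPM in DEN+CCl4, and no macrophage, MHC II, bile duct or H19 list gene was at 0. Their part in the family's change was not tested.

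Rpl22l1 differed most in STAM, from 73.8 to 213 CPM, 2.88-fold (95% counting interval 1.45 to 1.61 on the log2 scale). Rps7 and Rps12, of the small subunit, came next with 398 to 1009 CPM and 648 to 1474 CPM, 2.54-fold and 2.27-fold. Rpl35a, from 1086 to 1254 CPM, Rps27l, from 787 to 943 CPM, and Rpl22, from 633 to 812 CPM, differed least, by 1.15-fold, 1.20-fold and 1.28-fold. Rpl22 and its paralog lay near opposite ends of the family, and Rpl22 UMIs per Rpl22l1 UMI were higher in STAM16w than in any other section.

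In DEN+CCl4 the members split around no change. Rps29 and Rps28, short proteins of the small subunit, were 1.36-fold and 1.34-fold higher at 30 weeks, and Rpl39 1.31-fold. Rps27a, which encodes a ribosomal protein fused to ubiquitin, was at 542 CPM and then 407 CPM, a ratio of 0.751, and Rpl22 at 517 and 390 CPM, a ratio of 0.754. In STAM Rps27a was 2.04-fold higher at the later time.

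**Figure D3:**
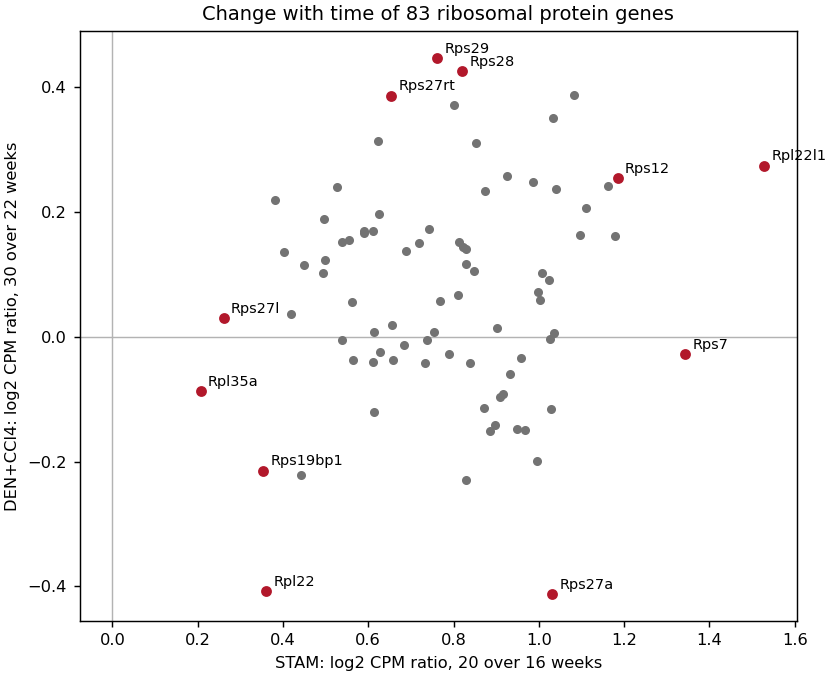
Log2 ratio of CPM, later over earlier section, of 83 ribosomal protein genes in STAM (horizontal, 20 over 16 weeks) and DEN+CCl4 (vertical, 30 over 22 weeks); 1 point per gene, labelled genes in red. All points lie right of 0 in STAM, with Rpl22l1 farthest, and they spread on both sides of 0 in DEN+CCl4.

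Liver lobules run from the portal vein, where blood enters, to the central vein, and hepatocytes along this axis differ in their enzymes. Spots were placed on it by 12 pericentral and 12 periportal marker genes, none of them a member, and the 25% of spots with the most pericentral scores were set against the 25% with the most periportal ones, outside collagen-rich, MHC II-rich and plasma-rich spots and patches. The family's share of UMIs was higher at the pericentral end in each section: 4.26% at the periportal end, 4.53% between and 4.77% at the pericentral end in STAM16w. The same 3 shares were 6.07%, 7.14% and 8.20% for STAM20w, 3.34%, 3.42% and 3.64% for DEN22w, and 3.28%, 3.61% and 3.85% for DEN30w. The intermediate spots lay between the ends in each section.

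Gene by gene, 75 of 83 members tested were higher in pericentral spots in CPM in every section, where 27.9% of all genes were. The medians were 0.15, 0.43, 0.14 and 0.24 on the log2 scale, in the order above, and exceeded those of all genes at 50 CPM or more by 0.11, 0.34, 0.04 and 0.14. With edgeR's TMM scaling and the section as a block, 0 of 83 members passed (5.54% of all genes passed as higher and 6.01% as lower); 2 had an unadjusted p under 0.05 (24.6% of all genes), the median was 0.09 against -0.01 for all genes, and the smallest adjusted p was 0.160. DESeq2 also called 0 (2.14% and 3.34% of all genes). With library size alone, a scaling that put the median of all genes at 0.15, 34 members passed as higher, with 12.1% of all genes, and the members' median was 0.24. The members' median lay above that of all genes on both scales, and whether members passed rested on the scaling.

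Rpl22l1 and Rps19 had the largest zonal differences. Rpl22l1 went from 66.3 CPM in periportal to 78.7 CPM in pericentral spots in STAM16w, from 134 to 226 CPM in STAM20w, from 95.7 to 104 CPM in DEN22w and from 109 to 131 CPM in DEN30w, a log2 fold change of 0.21 ± 0.10 (edgeR adjusted p = 0.237). Rps19, of the small subunit, went from 402 to 479, from 581 to 837, from 292 to 369 and from 310 to 384 CPM, a log2 fold change of 0.20 ± 0.09 (edgeR adjusted p = 0.160). Rpl7l1 had the lowest value, -0.18 ± 0.08 (edgeR adjusted p = 0.185), and Rpl36al, the paralog of Rpl36a, had -0.11. In CPM the sections split for Rpl7l1, with log2 ratios of -0.09, 0.04, 0.14 and -0.19. Those of Rpl36al were 0.07, 0.11, -0.004 and 0.007, so its negative value appeared with TMM scaling. No member passed relative to the family.

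The fitted zonal difference of STAM exceeded that of DEN+CCl4 for all 83 members tested, from 0.00 for Rps19bp1 to 0.46 for Rpl22l1, by a median of 0.24 against 0.03 for all genes. With library size alone it was positive for 75 of 83, with a median of 0.11 against -0.09. In CPM the mean ratio of STAM exceeded that of DEN+CCl4 for 74 of 83, and not for Rps19bp1, with -0.05 and 0.19 against 0.20 and 0.22, or Rpl7, with 0.13 and 0.15 against 0.22 and 0.18. The median excess over all genes was 0.11 in STAM16w, below the 0.14 of DEN30w, and without STAM20w the fitted median fell from 0.24 to 0.11. The interaction of zone and model passed for 0 members in edgeR and 0 in DESeq2 (0.171% of all genes passed as larger in STAM and 0.14% as smaller), 18 had an unadjusted p under 0.05 (10.7% of all genes), and the smallest adjusted p was 0.283, of Rpl22l1. Without STAM16w, 6 members passed, with 1.4% of all genes.

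Other features of the spots moved with the zone. Median UMIs per spot were 9143 and 10431 at the periportal and pericentral ends in STAM16w, 13234 and 10733 for STAM20w, 10552 and 5344.5 for DEN22w, and 11848 and 8454 for DEN30w, so in 3 sections the end with the higher share had the shallower spots. All 5 collagen, 4 MHC II and 5 macrophage markers passed as higher in pericentral spots. Their summed levels were 101 to 389, 140 to 650 and 440 to 1077 CPM there, against 93.8 to 176, 127 to 290 and 303 to 587 CPM in periportal spots, with no marker at 0. Their part in the zonal difference was not tested. Within the related lists, Ddit4, an inhibitor of mTOR, was lower in pericentral spots by a log2 fold change of -0.49 (edgeR adjusted p = 0.018), as were 2 of 78 mitochondrial ribosomal protein genes, Mrps27 and Mrps36. Of 10 p53 targets, 1, Phlda3, was higher. None of 17 translation factors or 20 biogenesis genes passed.

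**Figure D4:**
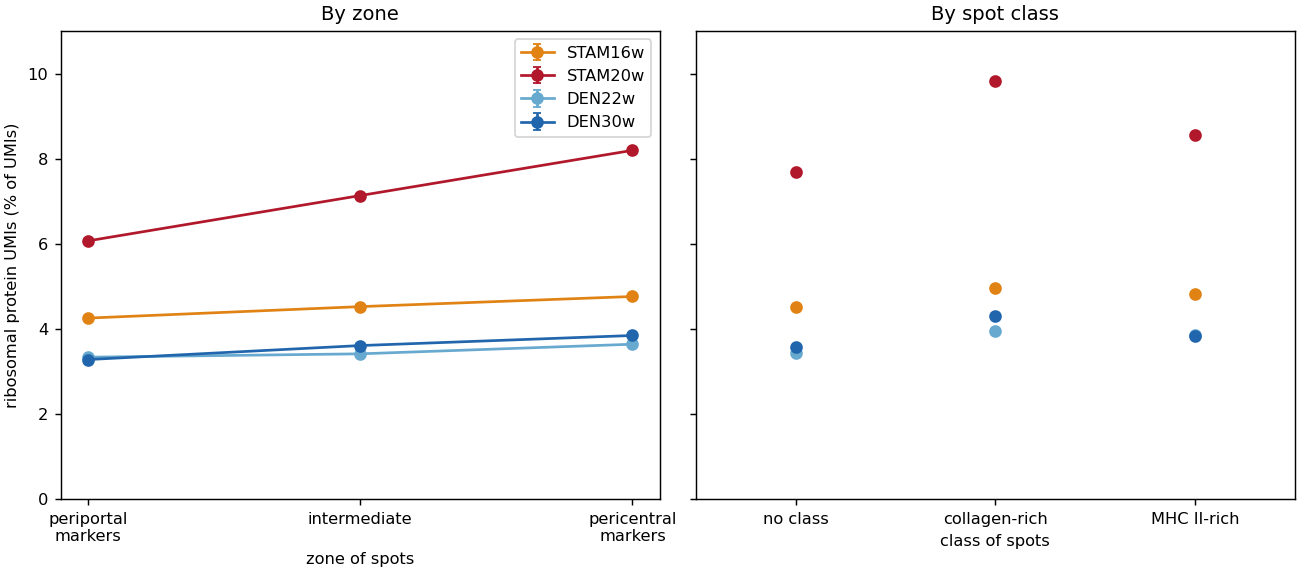
Share of UMIs taken by ribosomal protein genes (percent, axes from 0) by zone of spots, left, and in spots of no class, collagen-rich and MHC II-rich spots, right; colours mark the 4 sections and bars, mostly smaller than the points, exact 95% binomial intervals. In each section the share climbs from periportal to pericentral spots, and collagen-rich spots lie above spots of no class.

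Spots rich in fibroblast or immune genes also held a larger share. Collagen-rich spots, in which 5 collagen and matrix genes reached at least 3 times their section mean, numbered 52, 112, 78 and 99 and had shares of 4.96%, 9.84%, 3.95% and 4.31%, against 4.53%, 7.69%, 3.44% and 3.57% in spots of no class. In CPM, 64 of 83 members were higher there in every section, where 18.2% of all genes were. In edgeR with TMM, 0 of 83 members passed (5.35% of all genes passed as higher and 6.8% as lower), and 5 had an unadjusted p under 0.05 (24% of all genes). DESeq2 called 0 (3.33% of all genes as higher and 2.43% as lower). The members' median was 0.05 against -0.05 for all genes, and it turned to -0.032 when the class was cut at 5 times the section mean. With library size alone 46 members passed as higher, with 9.43% of all genes.

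The members highest in collagen-rich spots were Rps12, Rps27rt, Rpl39 and Rps19, with log2 fold changes of 0.21, 0.20, 0.20 and 0.20. In CPM, Rps12, Rpl39 and Rps19 were higher there in every section. Rps27rt, at a mean of only 43 CPM, had log2 CPM ratios of -0.41, 0.15, 0.73 and 0.59, so STAM16w went the other way. The lowest were Rpl36al, with -0.20, and Rpl22, with -0.17; for Rpl36al the adjusted p relative to the family was 0.0934, the smallest of any member. Of the mitochondrial ribosomal protein genes, 10 of 78 passed as lower here, where 6.8% of all genes did, and 10 of 78 in MHC II-rich spots, where 7.81% did; in collagen-rich spots the lowest of those that passed were Mrps35 with -0.56, Mrpl18 with -0.51 and Mrps30 with -0.47. Of 20 ribosome biogenesis genes, 2 passed as lower in collagen-rich spots, where 6.8% of all genes did. They were Dkc1 and Fbl, which modify ribosomal RNA, with -1.20 and -0.36 (edgeR adjusted p = 0.045 and 0.046). The median of the 20 was -0.04. Collagen-rich spots held more of other markers too: all 4 MHC II, 4 of 5 macrophage and 4 of 5 bile duct markers passed as higher, with summed levels of 340 to 1166, 586 to 1590 and 142 to 478 CPM against 134 to 432, 404 to 775 and 70.4 to 165 CPM in spots of no class, none at 0. Of the hepatocyte lists, 11 of 12 periportal, 3 of 12 pericentral and 3 of 5 general markers passed as lower. The part of these other cells in the members' values was not tested.

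In MHC II-rich spots, marked by 4 antigen-presentation genes, the share was 4.82%, 8.56%, 3.85% and 3.85% in 75, 97, 97 and 80 spots, above spots of no class in each section. The calls ran the other way and depended on the scaling. With TMM, 7 of 84 members passed as lower and 0 as higher (7.81% and 3.6% of all genes), with a median of -0.13 against -0.08 for all genes; with library size alone 12 passed as higher and 0 as lower, with 8.23% and 1.07% of all genes and a median of 0.13 against 0.18. DESeq2 called 0 as lower (2.06% of all genes). The members' median lay below that of all genes tested on both scales. Against genes at 50 CPM or more, in CPM, it lay above by 0.07, 0.09 and 0.10 in STAM16w, STAM20w and DEN22w. In DEN30w the difference was -0.04. In CPM, 55 members were higher in every section, where 18.5% of all genes were.

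The 7 were Rps18, Rps27, Rpl36al, Rpl36, Rps27l, Rpl39 and Rps27rt. Rps18, of the small subunit, had a log2 fold change of -0.33 ± 0.09 (edgeR adjusted p = 0.00622) and log2 CPM ratios of -0.11, -0.18, 0.11 and -0.11 in the 4 sections, with DEN22w on the other side. Rps27 had -0.33 ± 0.09 (edgeR adjusted p = 0.00793), with CPM ratios of 0.00, -0.15, 0.02 and -0.12. Rps27l had -0.27, with CPM ratios of -0.02, -0.14, 0.19 and -0.07, and Rps27rt had -0.45, with -0.51, 0.10, -0.11 and -0.45. The 7 are a share of the 84 members near the 7.81% of all genes, and the sections went both ways for these 4 genes. No member passed relative to the family, where the smallest adjusted p was 0.107. The count of 7 fell to 3 without STAM16w, 1 without STAM20w and 0 without DEN30w, and to 4 without the STAM20w patches, where 6.03%, 4.23%, 2.15% and 7.32% of all genes passed as lower. Of the marker lists, all 4 MHC II, 4 of 5 collagen, 4 of 5 macrophage and 4 of 5 bile duct markers passed as higher in these spots, and 4 of 5 hepatocyte and 11 of 12 periportal markers as lower; hepatocyte markers summed to 30990 to 67650 CPM against 30820 to 73450 CPM in spots of no class, and the bile duct marker Krt19 was at 0 in DEN22w. Their part was not tested.

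Plasma-rich spots, by 5 immunoglobulin and plasma cell genes, reached the minimum of 20 spots in STAM20w, with 45, and DEN30w, with 153, so no test was made. Their share was 7.73% in STAM20w, close to the 7.69% of spots of no class, and 4.06% in DEN30w, against 3.57%.

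STAM20w holds patches of touching spots that an earlier clustering of these data had set apart by leading genes, and which are named by them and not as cell types. The Cpe patch (Cpe, Slc7a11, Gpx2, Nkd1) covered 146 spots and had a ribosomal protein share of 10.9%; the H19 patch (H19, Afp, Cyp3a44, Fabp4, Fabp5), whose first 2 genes are fetal liver genes, covered 186 spots with 9.76%; the Cib3 patch (Cib3, Akr1c18, Gsta1, Serpina12, Serpinb6b) covered 80 spots with 6.93%. Spots outside the patches had 7.26%. The patches thus went different ways, 2 above the rest of the section and 1 just below. Median UMIs per spot were 27306, 14390 and 9423.5 in the same order and 11936 outside, so the order of shares followed that of depth. With 1 section there was no test.

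In the Cpe patch all 83 members at 20 CPM or more were higher than outside, by a median of 0.55 on the log2 scale against 0.20 for all genes at 50 CPM or more. Rpl22l1 stood out with 443 against 182 CPM, a log2 ratio of 1.28 (95% counting interval 1.21 to 1.36). Rpl35 followed with 1933 against 985 CPM, a log2 ratio of 0.97, and then Rps24 with 0.87 and Rpl12 and Rps7 with 0.86 each. Rpl22, the paralog of Rpl22l1, had 1077 against 755 CPM, a ratio of 0.51 that lay just under the family's median. Rps27l was lowest, with 1025 against 946 CPM, a ratio of 0.12, and Rpl7l1 had 0.13. The Cpe patch was also rich in pericentral hepatocyte genes, 17130 against 6400 CPM, and ribosome biogenesis genes, 941 against 616 CPM.

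In the H19 patch 81 members were higher and 2 lower, with a median of 0.40 against 0.08 for all genes. Rps12 led with 2456 against 1310 CPM, a log2 ratio of 0.91 (0.87 to 0.94), and Rps20 had 0.84. The 2 lower members were Rps27l, with 822 against 946 CPM, a ratio of -0.20 (-0.26 to -0.14), and Rps27, with 820 against 872 CPM, a ratio of -0.09 (-0.15 to -0.03). Rpl22l1, which led in the Cpe patch, had 228 CPM here and a ratio of 0.32, below the family's median. Pericentral hepatocyte genes summed to 1767 CPM, so this patch and the Cpe patch shared the raised family but not the zonal markers.

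In the Cib3 patch 31 members were higher and 52 lower, with a median of -0.07 against 0.07 for all genes. Rps27, Rps28 and Rplp1 were lowest, with log2 ratios of -0.59 (-0.73 to -0.45), -0.50 and -0.46, and Rps19bp1 and Rpl22l1 highest, with 0.48 and 0.34. Rps27 was thus below the family's median in each of the 3 patches, and Rpl22l1 was above 0 in each. The 10 p53 targets summed to 384, 290 and 313 CPM in the Cpe, H19 and Cib3 patches and to 280 CPM outside. In the same patches Rps27l, a p53-responsive gene, lay 0.44, 0.60 and 0.07 below the family's median on the log2 scale.

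**Figure D5:**
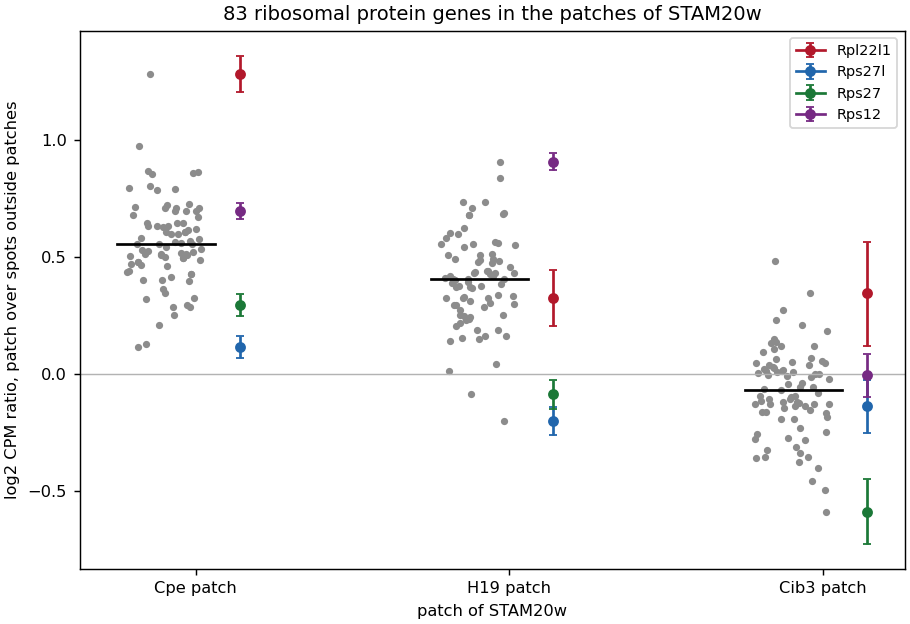
Log2 ratio of CPM in each patch of STAM20w over the spots outside patches, for 83 ribosomal protein genes (grey points, sideways scatter without meaning; black line, median) and 4 named genes in colour with exact 95% counting intervals. The family is raised in the Cpe and H19 patches and not in the Cib3 patch, Rpl22l1 lies far above it in the Cpe patch, and Rps27l and Rps27 lie below it in the Cpe and H19 patches.

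Over single spots the family's share went with the translation factors and against the periportal genes. The Spearman correlation with the summed share of the 17 translation factors was 0.33, 0.76, 0.18 and 0.36 in the 4 sections, and that with the periportal list was -0.35, -0.67, -0.35 and -0.45. Spots of a section share a library, and all are shares of one total, so these are descriptions.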

How the data were processed

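Visium libraries of 4 mouse liver sections were read with Space Ranger 1.3.1, which aligns with STAR, against mm10, per the submitters' processing notes. The deposited tables hold the authors' UMI counts, unnormalized, for each gene in each spot. How reads matching several genes were treated is not given in the sources used here. Spots with at least 500 UMIs and 250 genes were kept. Counts were summed per section and spot group and tested with edgeR 4.0.16 (quasi-likelihood, TMM scaling, filterByExpr, section as a block where spots of one section were compared) in R 4.3.3; DESeq2 1.42.0 was an alternative. P-values were adjusted over all genes tested by Benjamini-Hochberg at 0.05. A fit with the members' sum as library size gave values relative to the family. The scripts were tested on simulated data. Intervals are exact 95% Poisson or binomial ones and cover counting error only. A class needed 3 times the section's mean share of its list and 5 UMIs; a patch also needed at least 3 touching spots. Genes were named by rule: the 4 members farthest from the members' median on each side in each comparison (of those at 20 CPM or more), the paralogs and the 5 highest and lowest members; list genes that passed were named with their lists, and other members (the extremes of likeness over tiles, those that passed, overlapped or had a named partner) after their values were seen. The members, lists and patches were chosen with earlier results of these data known. Samples were grouped by the labels. Doublet calling does not apply to spots. The result of one related gene list is not reported here.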

Additional observations from a re-analysis of the deposited data

Results flagged for a closer look

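Among the members named by rule for collagen-rich against other spots, 3 had opposite signs in the models. Their log2 CPM ratios were above 0 in both STAM sections and below 0 in both DEN+CCl4 sections. The other members and all other genes were not counted for this split, so no background share stands beside it. Rpl36al had 0.10 and 0.04 against -0.10 and -0.04, a difference between the model means of 0.14. Rpl22 had 0.01 and 0.33 against -0.08 and -0.17, a difference of 0.30. Rps19bp1 had 0.28 and 0.43 against -0.03 and -0.48, a difference of 0.61. The difference between models was not tested for these genes, and of the members named by rule in the zone, collagen and MHC II comparisons no other had opposite signs of this kind.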

How the results depend on the processing

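The order of the sections by share, with STAM20w highest and STAM16w next, held in every alternative total or spot set run. The share was 4.65%, 8.09%, 3.51% and 3.68% in STAM16w, STAM20w, DEN22w and DEN30w without mitochondrially encoded genes, 6.82%, 10.56%, 4.95% and 4.996% without the 50 most abundant other genes, 4.53%, 7.12%, 3.44% and 3.57% without patch and class spots, and 3.63% in DEN30w with spots of at least 2000 UMIs. Patch shares (Cpe, Cib3, H19) were 10.73%, 7.04% and 9.62% at 2 times the section mean and 11.14%, 6.81% and 10.24% at 5 times. Between models, members higher numbered 48 with DESeq2 and 20 with no filter. For the zones, library size alone gave 34 members higher and a median of 0.24; the zone difference between models gave 0 to 6 members with 1 section left out. For collagen-rich spots, library size alone gave 46 higher and a median of 0.25, and a class at 5 times the mean gave 1 lower (8.89% of all genes) and turned the median to -0.032. For MHC II-rich spots, members lower numbered 0 with DESeq2 (median -0.050), 0 with library size alone (12 higher, median turned to 0.13, with Rps9 at 0.24, Rps20 at 0.24 and Rpl5 at 0.25 turned too), 0 with no section block, 1 at 2 times the mean (median -0.044), 3 at 5 times (median -0.22), 4 without patch spots (5.7%, 5.31% and 7.32% of all genes), which was chosen after seeing the data, and 0 to 5 with 1 section left out. STAM members past 2-fold between times numbered 5 without the top 50 genes and 5 without patch spots. Those past 1.5-fold numbered 50 and 54 in the same settings. Relative to the family, leaving out 1 section gave 0 to 2 members higher (0.33% to 2.12% of all genes) and 0 to 3 lower (0.859% to 63.9%) between models, 0 to 1 lower in collagen-rich spots (3.55% to 10.0%) and 0 to 1 lower in MHC II-rich spots (1.61% to 3.39%). The cause of these changes was not tested. Library size alone moved the median of all genes to 0.15, 0.16 and 0.18 in the zone, collagen and MHC II comparisons. Where leaving out a section left 1 in a model, that section was assumed to vary like the others. Comparisons of spots within sections had the section as a block. Between models, no paired analysis was possible because the labels pair no section of one model with one of the other. A comparison of plasma-rich spots was not run, as 2 sections had too few of them. Depth limits Rpl10l and Rpl39l, whose counts near 0 allow no comparison.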
